A study of Mus musculus with 2 samples.

Results

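The collagen genes were compared between R2a, the CD11c-positive resident macrophages of the mouse kidney, and R2b, the CD11c-negative ones. The members were all protein-coding genes whose symbol has the form Col, number, a, number, and 44 of the 48795 genes in the count table met this rule. Both groups were sorted by flow cytometry from perfused, collagenase-digested kidneys of wild-type C57BL/6 mice aged 8 weeks, and each library was made from the pooled RNA of 6 to 8 mice. With 1 library per group the variation from animal to animal is unknown, and the differences below have no replicate check and no p-value.

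Collagens are secreted proteins whose chains wind into a triple helix. The fibrillar types, of which I and III are the most abundant in interstitial tissue, assemble into fibres and are made mainly by fibroblasts. Type IV forms the sheet-like network of basement membranes, where the chains encoded by Col4a1 and Col4a2 are found in most tissues and those encoded by Col4a3, Col4a4 and Col4a5 form the mature glomerular basement membrane. The remaining types bind to fibrils, form beaded filaments or short networks, or span the cell membrane.

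Gene counts summed to 11811923 reads for R2a and 23915896 for R2b. Levels are given as CPM, reads per 1000000 reads of the TMM-scaled library total, and intervals in parentheses are exact 95% intervals of a ratio, R2a over R2b, that cover counting error only. The sort marker Itgax, which encodes CD11c, stood at 367 CPM in R2a against 48.9 CPM in R2b. All 12 macrophage markers listed, among them Csf1r, Adgre1 and the C1q chains, were over 1 CPM, with summed levels of 25762 CPM in R2a against 28210 CPM in R2b. Genes of other kidney cells were present too. The summed levels of 10 proximal tubule genes were 3617 CPM in R2a against 3699 CPM in R2b. Bulk RNA of sorted cells cannot tell fewer cells of a type from less RNA per cell.

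As a whole the collagen genes took up a slightly larger share of the gene reads in R2a, and 3 members, all under 10 CPM, were lower in R2a. They held 8651 reads in R2a, 0.0732% of the reads on genes (exact 95% interval 0.0717% to 0.0748%), and 16238 reads in R2b, 0.0679% (0.0669% to 0.0690%). After TMM scaling the ratio of their summed CPM was 1.02 (0.995 to 1.05), an interval that includes 1. Fibrillar genes made up 10.3% of the collagen reads in R2a and 10.3% in R2b, the 6 type IV genes 26.2% in R2a and 25.5% in R2b, and the other types 63.5% in R2a and 64.2% in R2b. Of the 44 genes, 38 had reads in either library, 26 reached 1 CPM in either library and 6 had none in both. The 26 genes over 1 CPM are called measured genes below, and 4 of them (Col5a1, Col6a2, Col7a1 and Col16a1) passed that minimum only through R2b, so that they could only be lower in R2a. Counts and medians over the measured genes describe the genes that passed and are no support for a shift of the family.

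A call required that the log2 ratio of CPM plus 0.5 be at least 1 in size, that the gene reach 1 CPM in either library and that the interval exclude a ratio of 1. By this rule 3 measured collagen genes were lower in R2a and 0 higher, where 1.84% of all 15603 measured genes were lower and 1.93% higher. The 3 are 11.5% of the measured collagen genes. The 3 genes are Col1a2, Col3a1 and Col6a2. Among all genes whose higher level was between 1 and 10 CPM 3.24% were called lower, 3.62% higher, and among the 17 collagen genes in that range 17.6% were lower. The median log2 ratio of these 17 collagen genes was -0.41, against 0.00 for all genes of that range. The 9 collagen genes from 10 CPM up held no call and had a median of 0.08, against -0.01 for all genes of that range, of which 0.633% were called higher and 0.769% lower. Under total-count scaling Col3a1 alone remained called, and the count of lower genes ran from 0 to 7 over the alternative rules.

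**Figure D1:**
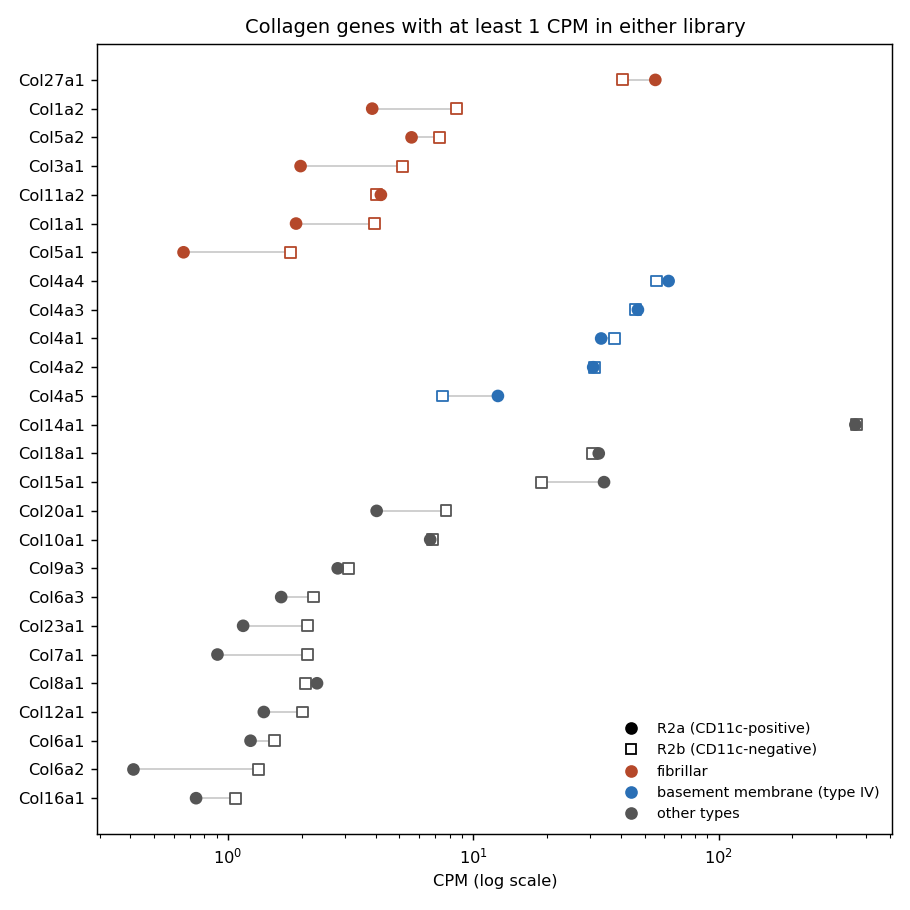
Level of each of the 26 measured collagen genes in R2a (filled circles) and R2b (open squares), in CPM on a log scale, ordered by class and by level in R2b. Col14a1 stands alone near 360 CPM with both libraries on the same point, and the points separate mainly among genes under 10 CPM and for Col4a5, Col15a1 and Col27a1.

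Among the fibrillar genes, the classical chains of interstitial collagen were lower in R2a or had ratios below 1, whereas Col27a1 had a ratio above 1. Col1a2 (GRCm38 chromosome 6, 4504814 to 4541544), the alpha-2 chain of type I, had 47 reads or 3.87 CPM in R2a against 199 reads or 8.55 CPM in R2b. It was 2.21 times lower in R2a, with a ratio of 0.453 (0.322 to 0.625). Col3a1 (chromosome 1, 45311538 to 45349706), the single chain of type III, had 24 reads or 1.98 CPM in R2a against 120 reads or 5.16 CPM in R2b, 2.61 times lower, with a ratio of 0.383 (0.236 to 0.598). Both differences rest on few reads, and the counting intervals run from 1.60 to 3.10 times lower in R2a for Col1a2 and from 1.67 to 4.23 times lower for Col3a1. Col1a1, the alpha-1 chain of type I, had 23 reads in R2a against 92 in R2b. Its ratio of 0.479 (0.289 to 0.764) lay on the same side, but its log2 ratio of -0.89 did not reach the rule.

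The type V chains, which set the diameter of type I fibrils, also had ratios below 1. Col5a1 had 8 reads in R2a against 42 in R2b, a ratio of 0.365 (0.148 to 0.787) with a log2 ratio of -0.99. Col5a2, which lies 24614 bases from Col3a1 on chromosome 1, had 68 reads in R2a against 169 in R2b, a ratio of 0.771 whose interval (0.573 to 1.03) includes 1. Summed, the 6 chains of types I, III and V held 171 reads or 14.1 CPM in R2a against 626 reads or 26.9 CPM in R2b, and the ratio of 0.524 (0.440 to 0.621) was clear of 1. This grouping was chosen after the values were seen.

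Col27a1 (chromosome 4, 63214004 to 63334991), a fibrillar collagen known from cartilage, had more reads than any other gene of the class in both libraries. It had 670 reads or 55.2 CPM in R2a against 942 reads or 40.5 CPM in R2b, a ratio of 1.36 (1.23 to 1.51) that did not reach the rule. Per length it also led the class, with 4.24 CPM per kilobase of exon in R2a against 3.11 in R2b, where Col1a2 had 0.312 in R2a and 0.688 in R2b. Col11a2, a chain of cartilage type XI, had 51 reads in R2a against 94 in R2b with a ratio of 1.04 (0.725 to 1.48). The other fibrillar genes were hardly detected. Col2a1 had 0 reads in R2a against 5 in R2b, Col5a3 1 in R2a against 4 in R2b, Col11a1 1 in R2a against 0 in R2b, and Col24a1 2 in R2a against 8 in R2b.

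The sum over the fibrillar class depended on Col27a1. The 11 genes held 895 reads in R2a against 1675 in R2b, a ratio of summed CPM of 1.02 (0.944 to 1.11). Without Col27a1 the sum was 18.5 CPM in R2a against 31.5 CPM in R2b, 1.70 times lower, with a ratio of 0.588 (0.505 to 0.684). The fibrillar ratio divided by the type IV ratio was 0.978 (0.887 to 1.08) over all members, and 0.562 (0.478 to 0.659) when Col27a1 was left out of the fibrillar genes, both by the exact conditional interval of the odds ratio on reads. Col27a1 was singled out after its values were seen.

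The promoter windows of these genes are shown because Col1a2 and Col3a1 were called lower while Col27a1 was not. They run from 250 bases before to 50 bases after the start of the gene as RefSeq gives it on GRCm38.p6, 5′ to 3′ on the plus strand, which is the coding strand of all 3 genes. Capitals mark CCAAT or its reverse complement ATTGG, the core of the CCAAT box known from type I collagen promoters. The windows lie at chr6:4505368-4505667, chr1:45311288-45311587 and chr4:63215162-63215461. The gene spans given above are from GENCODE, and the windows of Col1a2 and Col27a1 lie wholly inside them, because the RefSeq starts differ.
Col1a2: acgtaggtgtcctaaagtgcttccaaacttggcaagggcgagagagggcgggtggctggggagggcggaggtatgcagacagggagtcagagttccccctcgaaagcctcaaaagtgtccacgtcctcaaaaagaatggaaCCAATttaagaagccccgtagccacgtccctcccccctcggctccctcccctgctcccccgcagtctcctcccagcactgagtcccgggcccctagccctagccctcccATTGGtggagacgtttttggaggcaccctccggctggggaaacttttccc
Col3a1: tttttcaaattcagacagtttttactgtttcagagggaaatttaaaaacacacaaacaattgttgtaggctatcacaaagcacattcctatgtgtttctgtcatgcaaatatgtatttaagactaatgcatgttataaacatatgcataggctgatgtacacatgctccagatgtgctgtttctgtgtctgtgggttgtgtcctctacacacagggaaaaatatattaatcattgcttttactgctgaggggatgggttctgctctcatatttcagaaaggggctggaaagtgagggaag
Col27a1: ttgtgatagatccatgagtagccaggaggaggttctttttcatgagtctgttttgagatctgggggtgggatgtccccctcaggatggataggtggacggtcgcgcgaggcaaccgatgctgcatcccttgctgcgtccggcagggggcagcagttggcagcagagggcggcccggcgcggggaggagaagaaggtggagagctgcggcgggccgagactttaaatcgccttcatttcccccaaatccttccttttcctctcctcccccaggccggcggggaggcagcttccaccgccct
The Col1a2 window holds the motif 2 times, with CCAAT starting 109 bases before the RefSeq start and ATTGG starting at it. The windows of Col3a1 and Col27a1 do not hold these letters. CCAAT on either strand was found in 37.4% of all 32851 promoter windows and in the first window of 11 of the 35 collagen genes with a window. The GC box GGGCGG, searched on both strands, was found in the Col1a2 and Col27a1 windows, in the first window of 21 of the 35 collagen genes and in 35.7% of all windows. TATAAA, also searched on both strands, was found in the Col3a1 window, in the first window of 5 of the 35 and in 13.6% of all windows. The first window is the first by position. Some collagen genes hold CCAAT or GGGCGG only in a later window and are not counted, whereas the percentages cover all windows.

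Other genes of interstitial matrix stood beside the fibrillar genes at low levels. Of the 15 fibroblast and pericyte markers, 11 were measured, 2 were lower in R2a and 0 higher, where 3.24% of all genes between 1 and 10 CPM were lower and 3.62% higher. The summed level of the list was 26.4 CPM in R2a against 28.9 CPM in R2b. The lower ones were Dcn, the fibril-binding proteoglycan decorin, with 6 reads in R2a against 49 in R2b (ratio 0.235, 0.0822 to 0.549), and Fbln1, the matrix glycoprotein fibulin-1, with 2 reads in R2a against 25 in R2b. Both passed the minimum of 1 CPM only through R2b, so that they could only be called lower in R2a. Lum and Mfap5 had no read in either library. The other 9 measured markers went in both directions. The fibroblast receptor gene Pdgfra had 20 reads in R2a against 58 in R2b, with a ratio of 0.661 (0.377 to 1.12). Gli1, a transcription factor gene of the hedgehog pathway, had 32 reads in R2a against 29 in R2b, with a ratio of 2.12 (1.24 to 3.62), and the receptor gene Pdgfrb had 47 reads in R2a against 60 in R2b, with a ratio of 1.502 (1.003 to 2.237). The pericyte proteoglycan Cspg4, the marker of the list with the highest CPM, had 7.74 CPM in R2a against 6.70 CPM in R2b. The part of fibroblasts or pericytes in the lower collagen reads was not tested.

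**Figure D2:**
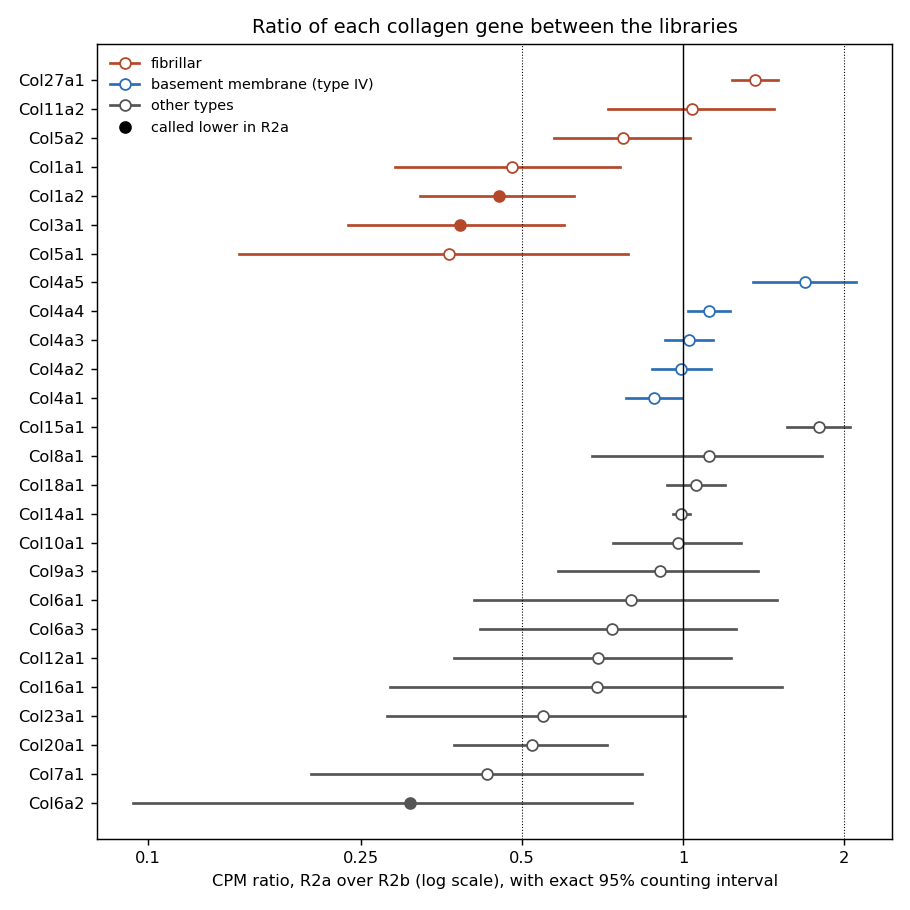
Ratio of CPM in R2a over R2b for each of the 26 measured collagen genes, on a log scale with exact 95% counting intervals; filled points are genes called lower in R2a and dotted lines mark 2-fold. Col1a2, Col3a1 and Col6a2 are filled, the intervals of Col27a1, Col4a5, Col4a4 and Col15a1 lie above 1, and that of Col14a1 (0.956 to 1.03) is the narrowest.

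None of the type IV genes was called. The class held 2265 reads or 187 CPM in R2a against 4146 reads or 178 CPM in R2b, a ratio of 1.05 (0.995 to 1.10). Col4a1 and Col4a2, the chains of the widespread type IV network, held 403 and 374 reads in R2a, against 876 and 723 in R2b. The ratio was 0.882 (0.782 to 0.994) for Col4a1 and 0.992 (0.873 to 1.13) for Col4a2, and the sign of the Col4a2 log2 ratio of -0.01 changed under total-count and DESeq2 scaling. Per kilobase of exon the Col4a1 level was 0.956 times that of Col4a2 in R2a (0.828 to 1.10) and 1.07 times in R2b (0.973 to 1.19). With the longest transcript as length it was 1.05 times in R2a (0.911 to 1.21) and 1.18 times in R2b (1.07 to 1.30), so that whether the pair differs in R2b depends on which exons are counted.

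Col4a1 and Col4a2 lie head to head on chromosome 8 and their spans overlap by 22 bases. The pair is known to share a bidirectional promoter. Their windows are shown because the pair shares this promoter. The Col4a1 window (chr8:11312777-11313076) is given on the minus strand and the Col4a2 window (chr8:11312555-11312854) on the plus strand, each the coding strand of its gene. Capitals mark the 78 bases that both windows share, and which are the reverse complement of each other.
Col4a1: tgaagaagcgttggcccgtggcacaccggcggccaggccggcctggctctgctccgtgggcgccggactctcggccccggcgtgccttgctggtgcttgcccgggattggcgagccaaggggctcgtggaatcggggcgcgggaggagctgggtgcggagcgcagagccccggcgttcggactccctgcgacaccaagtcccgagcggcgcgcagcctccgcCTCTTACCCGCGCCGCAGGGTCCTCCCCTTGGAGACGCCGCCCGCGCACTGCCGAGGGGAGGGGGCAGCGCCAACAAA
Col4a2: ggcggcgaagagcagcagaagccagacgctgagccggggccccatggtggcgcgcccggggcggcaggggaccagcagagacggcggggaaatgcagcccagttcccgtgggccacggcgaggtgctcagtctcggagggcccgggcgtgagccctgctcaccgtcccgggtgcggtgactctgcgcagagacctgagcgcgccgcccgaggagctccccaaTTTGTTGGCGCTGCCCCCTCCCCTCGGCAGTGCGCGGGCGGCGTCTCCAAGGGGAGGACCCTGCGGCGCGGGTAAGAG
GGGCGG or its reverse complement was found in both windows, with a match inside the shared stretch. CCAAT or its reverse complement was also found in both, outside the shared stretch for Col4a1 and running into its start for Col4a2.

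Col4a3 and Col4a4, which also lie head to head, with a gap of 71 bases on chromosome 1, encode chains of the mature glomerular network. Col4a3 had 569 reads or 46.9 CPM in R2a against 1063 reads or 45.7 CPM in R2b, a ratio of 1.03 (0.925 to 1.14). Col4a4 had 759 reads or 62.5 CPM in R2a against 1299 reads or 55.8 CPM in R2b, a ratio of 1.12 (1.02 to 1.23). Per kilobase of exon the level of Col4a3 was 4.70 CPM in R2a and 4.58 CPM in R2b, and that of Col4a1 was 4.45 CPM in R2a and 5.04 CPM in R2b. Of the 9967 exon bases of Col4a3, 4981 lie within the span of the antisense transcript C430014B12Rik, which had 18 reads in R2a against 22 in R2b.

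The X-linked Col4a5, whose chain joins those of Col4a3 and Col4a4 in the glomerulus, had the highest ratio of the class. It held 153 reads or 12.6 CPM in R2a against 174 reads or 7.48 CPM in R2b, a ratio of 1.69 (1.35 to 2.11), and its log2 ratio of 0.72 did not reach the rule. Its level per kilobase was 0.318 times that of Col4a4 in R2a (0.266 to 0.379) and 0.212 times in R2b (0.180 to 0.248). Its head-to-head neighbour Col4a6, 1308 bases away, had 7 reads in R2a against 11 in R2b. Col4a5 and Col4a6 together had a ratio 1.78 times (1.41 to 2.25) that of Col4a1 and Col4a2, and Col4a1 and Col4a2 one 0.864 times (0.774 to 0.965) that of Col4a3 and Col4a4. These pairs of neighbours were set against each other with their values known.

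Markers of podocytes, endothelial and mesangial cells were measured beside them. As a background for these lists, 3.62% of all genes between 1 and 10 CPM were called higher and 3.24% lower. Among all genes from 10 CPM up 0.633% were called higher and 0.769% lower. Of 8 podocyte markers, a list shortened after its values were seen, 7 were measured, 1 was higher in R2a and 0 lower. The higher one, the transcription factor gene Wt1, had 64 reads or 5.27 CPM in R2a against 43 reads or 1.85 CPM in R2b, a ratio of 2.85 (1.91 to 4.30). The summed level of the list was 278.5 CPM in R2a against 250.9 CPM in R2b, most of it from the phosphatase Ptpro, at 186 CPM in R2a against 191 CPM in R2b. Podxl, which encodes the surface protein podocalyxin, was next in CPM, with 45.3 CPM in R2a against 26.2 CPM in R2b. Of the 7 measured markers 2 had ratios below 1, Ptpro and Nphs1. Nphs1 had 43 reads in R2a against 92 in R2b, a ratio of 0.896 (0.609 to 1.30). None of the 8 was at 0 in both libraries. Of 12 endothelial markers 1, the tight junction gene Cldn5, was higher in R2a, with 25 reads in R2a against 15 in R2b, and 0 were lower. Cldn5 passed the minimum only through R2a, so that it could only be called higher. Of the 12 markers 4 had ratios below 1, among them the capillary gene Plvap, with 35 reads in R2a against 128 in R2b, a ratio of 0.524 (0.350 to 0.767). The summed level was 133 CPM in R2a against 101 CPM in R2b, led by the endoglin gene Eng at 59.4 CPM in R2a against 46.0 CPM in R2b and Pecam1 at 22.7 CPM in R2a against 11.3 CPM in R2b. Of 5 mesangial markers 1, the growth factor gene Ptn, was higher, with 20 reads in R2a against 0 in R2b, and it too passed the minimum only through R2a. Itga8, an integrin chain, had 122 CPM in R2a against 62.4 CPM in R2b. The summed level of the mesangial list was 136 CPM in R2a against 69.4 CPM in R2b, most of it from Itga8. Gata3, next in CPM in R2a, had 4.70 CPM in R2a against 2.45 CPM in R2b. Pdgfrb is in both this list and that of fibroblasts and pericytes. No endothelial or mesangial marker was at 0 in both libraries. The tubule lists had ratios of summed CPM below 1, with 0.978 (0.967 to 0.989) for proximal tubule and 0.889 (0.870 to 0.908) for distal nephron. Their members went in both directions, with ratios below 1 for 8 of 10 proximal tubule and 6 of 10 distal nephron markers. In the distal nephron list Aqp2, Hsd11b2, Slc26a4 and Atp6v1g3 had ratios above 1, from 1.20 to 2.83. The part of podocytes, endothelial, mesangial or tubule cells in the type IV reads was not tested.

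The partners of type IV in basement membranes included no call in either direction. Of 14 laminin, nidogen, perlecan and agrin genes 12 were measured, and 11 of these had ratios below 1, with a median log2 ratio of -0.30 against -0.01 for all genes. Highest in CPM were the laminin chain Lamc1, with 87.6 CPM in R2a against 114 CPM in R2b, agrin (Agrn), with 40.6 CPM in R2a against 45.2 CPM in R2b, and the laminin chain Lamb1, with 28.4 CPM in R2a against 31.9 CPM in R2b. The summed level of these partners was 248 CPM in R2a against 304 CPM in R2b, a ratio of 0.815 (0.781 to 0.851), where the type IV sum had a ratio of 1.05.

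**Figure D3:**
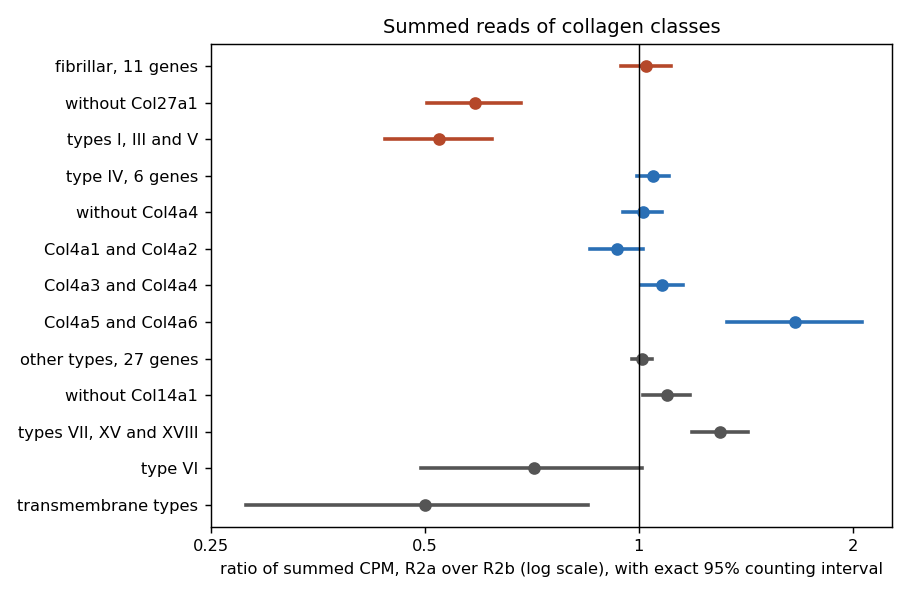
Ratio of summed CPM, R2a over R2b, for collagen classes and subsets, on a log scale with exact 95% counting intervals. The fibrillar sum lies at 1.02 with Col27a1 and at 0.588 without it, the type IV sum at 1.05, and types VII, XV and XVIII together lie above 1 (1.19 to 1.42).

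Of the other types, Col14a1 alone supplied 50.6% of all collagen reads in R2a and 52.2% in R2b. Col14a1 (chromosome 15, 55307750 to 55520803) encodes type XIV, which binds to the surface of collagen fibrils. It held 4380 reads or 361 CPM in R2a against 8472 reads or 364 CPM in R2b, with a ratio of 0.991 (0.956 to 1.03). The sign of its log2 ratio of -0.01 changed under total-count scaling. Per kilobase of exon it stood at 51.5 CPM in R2a against 51.9 CPM in R2b, and the next gene, Col4a4, at 5.89 CPM in R2a against 5.26 CPM in R2b. The 15 fibroblast and pericyte markers summed to 6.40 CPM per kilobase in R2a and 6.67 CPM per kilobase in R2b. The 12 macrophage markers summed to 13438 CPM per kilobase in R2a and 14722.5 CPM per kilobase in R2b. Which cells supplied the Col14a1 reads was not tested. Only 2.10% of the exon bases of Col14a1 lie within the span of another gene, an antisense transcript with 14 reads in R2a against 60 in R2b. Without Col14a1 the ratio of all collagen reads was 1.05 (1.02 to 1.09).

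Other fibril-associated types were rare. Col20a1, which encodes type XX, had 49 reads or 4.04 CPM in R2a against 180 reads or 7.73 CPM in R2b, a ratio of 0.522 (0.373 to 0.719) whose log2 value of -0.86 did not reach the rule. Col9a3 had 34 reads in R2a against 72 in R2b, Col12a1 17 in R2a against 47 in R2b, and Col16a1 9 in R2a against 25 in R2b, all with intervals that include 1. Col9a1 and Col22a1 had no read in either library, which allows up to 0.254 CPM in R2a and 0.125 CPM in R2b.

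The collagens of the basement membrane zone differed from each other. Col15a1 (chromosome 4, 47208161 to 47313167), the type XV proteoglycan that links basement membranes to the matrix below, had 414 reads or 34.1 CPM in R2a against 443 reads or 19.0 CPM in R2b. Its ratio of 1.79 (1.56 to 2.05) was the highest of the measured collagen genes, with a log2 ratio of 0.82 that did not reach the rule. Col18a1, the related type XVIII from which endostatin is cut, had 394 reads or 32.5 CPM in R2a against 714 reads or 30.7 CPM in R2b, a ratio of 1.06 (0.933 to 1.20). The ratio of Col15a1 was 1.69 times (1.41 to 2.04) that of Col18a1, a pair compared after the values were seen. Of the exon bases of Col18a1, 33.5% lie within the span of the folate carrier gene Slc19a1 on the other strand, which had 205 reads in R2a against 453 in R2b. Col7a1, the chain of the anchoring fibrils, had 11 reads in R2a against 49 in R2b, with a ratio of 0.430 (0.202 to 0.839) and a log2 ratio of -0.89.

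Type VI, which forms beaded filaments around cells, was held by few reads. Col6a2 had 5 reads or 0.412 CPM in R2a against 31 reads or 1.33 CPM in R2b, 3.23 times lower, with a ratio of 0.309 (0.0939 to 0.802). Its log2 ratio of -1.01 was close to the threshold, and the call was lost under total-count and DESeq2 scaling. Col6a1 had 15 reads in R2a against 36 in R2b, Col6a3 20 in R2a against 52 in R2b, and Col6a6 5 in R2a against 2 in R2b, and Col6a4 and Col6a5 had none. The 6 genes together had a ratio of 0.713 (0.495 to 1.01), so that a difference of the type as a whole was not detectable at this depth.

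The short-network and transmembrane types gave no call. Col10a1, the collagen of hypertrophic cartilage, had 81 reads in R2a against 159 in R2b, a ratio of 0.977 (0.738 to 1.28). All of its exon bases lie within the span of Nt5dc1, a gene on the other strand with 265 reads in R2a against 477 in R2b. The counter assigned 41.2% of R2a reads and 38.9% of R2b reads to no annotated feature. The part of Nt5dc1 in the Col10a1 reads was not tested. Col8a1 had 28 reads in R2a against 48 in R2b, and Col8a2 none. The 4 transmembrane genes summed to 18 reads or 1.48 CPM in R2a against 69 reads or 2.97 CPM in R2b, with an interval of the ratio of 0.280 to 0.850, of which Col23a1 held 14 reads in R2a and 49 in R2b and Col17a1 3 reads in R2a and 20 in R2b. Col25a1 had 1 read in R2a against 0 in R2b, and Col13a1 none. Outside these types, the fibril-associated Col19a1 had 4 reads in R2a against 2 in R2b and Col9a2 0 in R2a against 1 in R2b. Col26a1 and Col28a1, placed in no subgroup, had 7 and 0 reads in R2a against 13 and 2 in R2b.

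Nearest to the minimum of 1 CPM, Col16a1 lay inside it with 0.741 CPM in R2a against 1.07 CPM in R2b, and Col17a1 outside it with 0.247 CPM in R2a against 0.859 CPM in R2b. Nearest to the size rule, Col6a2 lay inside it at a log2 ratio of -1.01, and Col5a1 outside it at -0.99. The 18 genes under the minimum held 31 reads in R2a against 68 in R2b.

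By level per kilobase of exon the order was led by Col14a1, Col4a4 and Col15a1 in R2a, against Col14a1, Col4a4 and Col4a1 in R2b. Col15a1 took place 3 in R2a and place 8 in R2b. Below Col14a1 the genes Col4a1, Col4a2, Col4a3, Col4a4, Col18a1 and Col27a1 lay between 4.24 and 5.89 CPM per kilobase in R2a and between 3.11 and 5.26 in R2b. With the longest transcript as length, all of the 10 highest genes in R2a and 9 of the 10 in R2b stayed among the 10 highest. Of the type I chains, Col1a1 stood at 0.926 times the level of Col1a2 per kilobase in R2a (0.537 to 1.56) and at 0.875 times in R2b (0.676 to 1.13). With the longest transcript as length these values were 0.441 in R2a and 0.417 in R2b, so that the ratio of the chains depends on which exons are counted.

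Genes that make collagen included no call, and some of them were not measured. Of 18 genes that modify and fold the chains 15 were measured, with a median log2 ratio of -0.11. Highest in CPM were P4hb, the protein disulfide isomerase that is also the beta subunit of prolyl hydroxylase, with 243 CPM in R2a against 252 CPM in R2b, the galactosyltransferase Colgalt1, with 98.2 CPM in R2a against 90.0 CPM in R2b, and the prolyl hydroxylase subunit P4ha1, with 82.6 CPM in R2a against 95.4 CPM in R2b. The collagen chaperone Serpinh1 stood at 12.8 CPM in R2a against 13.8 CPM in R2b. Of 15 genes of procollagen export and processing 9 were measured, with a median of -0.03 and with the export factors Mia2 and Mia3 and the transcription factor gene Creb3l2 highest in CPM. Mia3 stood at 76.9 CPM in R2a against 66.9 CPM in R2b, Mia2 at 152 (R2a) and 134 CPM (R2b), and Creb3l2 at 39.1 (R2a) and 39.9 CPM (R2b). The procollagen N-proteinase genes were at or near 0, with 0 reads in R2a against 5 in R2b for Adamts2, 0 in R2a against 4 in R2b for Adamts3 and 0 in R2a against 2 in R2b for Adamts14. The C-proteinase gene Bmp1 had 34 reads in R2a against 71 in R2b, and its relatives Tll1 and Tll2 had 1 and 0 reads in R2a against 5 and 0 in R2b.

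Of 13 genes of cross-linking and fibril binding 8 were measured, 2 were lower in R2a and 0 higher, where 1.84% of all measured genes were lower. Beside Dcn, which passed the minimum only through R2b and is in both this list and that of fibroblasts and pericytes, the lower gene was Bgn, the related proteoglycan biglycan, with 43 reads or 3.54 CPM in R2a against 201 reads or 8.64 CPM in R2b, 2.44 times lower, with a ratio of 0.410 (0.288 to 0.573). The cross-linking enzymes Tgm2, at 27.5 CPM in R2a against 23.6 CPM in R2b, and Loxl3, at 13.8 CPM in R2a against 11.2 CPM in R2b, were highest in CPM. The median of the list was -0.20.

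Collagen receptors gave no call among 9 measured of 14, with a median of 0.02. The mannose receptor Mrc1, which binds and takes up collagen, stood at 858 CPM in R2a against 1651 CPM in R2b, a ratio of 0.519 (0.508 to 0.531) just short of the rule. The integrin chain Itgb1, the partner of all collagen-binding integrins, stood at 542 CPM in R2a against 536 CPM in R2b, and the inhibitory collagen receptor Lair1 at 357 CPM in R2a against 296 CPM in R2b. Of 14 genes of collagen breakdown and its inhibitors 11 were measured, and 1 was higher and 1 lower in R2a, with a median of -0.17, where 1.93% of all measured genes were higher and 1.84% lower. The higher one was the elastase Mmp12, at 203 CPM in R2a against 31.1 CPM in R2b, and the lower one the gelatinase Mmp9, with 2 reads in R2a against 103 in R2b, which passed the minimum only through R2b. Highest in CPM were the lysosomal proteases Ctss, with 1868 CPM in R2a against 1812 CPM in R2b, and Ctsb, with 1628 CPM in R2a against 2099 CPM in R2b. The collagenase Mmp13, which cleaves fibrillar collagen, stood at 436 CPM in R2a against 326 CPM in R2b, a ratio of 1.34 (1.29 to 1.39).

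**Figure D4:**
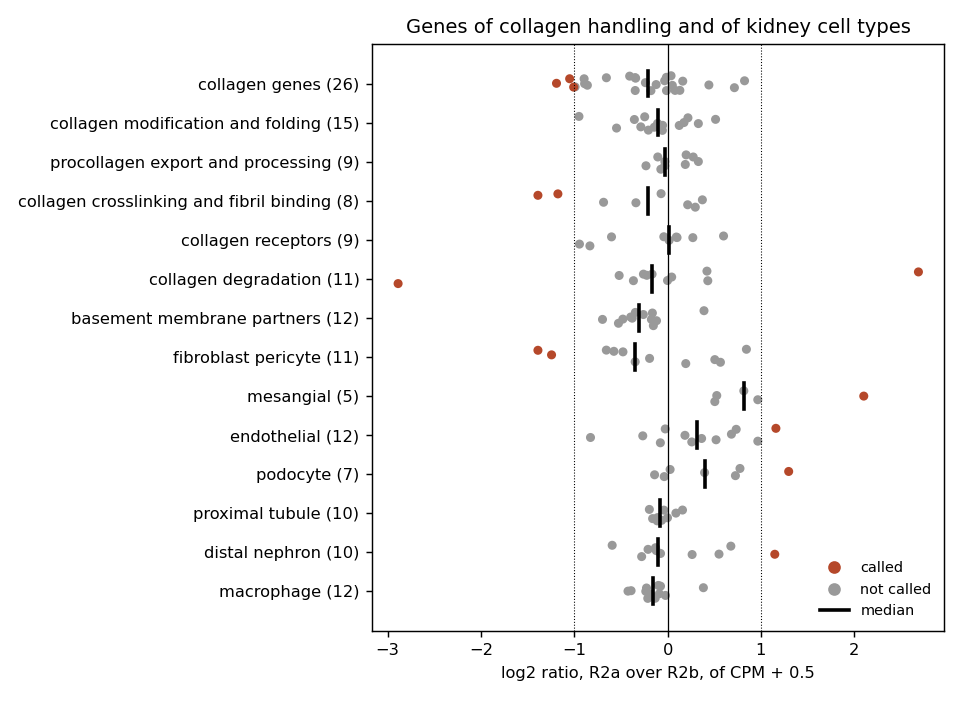
Log2 ratio, R2a over R2b, of CPM plus 0.5 for each measured gene of the collagen genes, of lists of collagen handling and of kidney cell types, with the number of measured genes in parentheses and the list's median as a bar. Called genes are coloured: 3 collagen genes, Dcn, Bgn and Fbln1 lie left of -1, and Ptn, Wt1, Cldn5 and Atp6v1g3 right of 1. Mmp9 is farthest left and Mmp12 farthest right.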

How the data were processed

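RNA sequencing of 1 pooled library of R2a and 1 of R2b was used. The authors deposited raw counts, in whole reads for each gene. According to the submitters' processing notes and per the labels, base calls were made with bcl2fastq 2.18.0.12, reads were aligned with STAR 2.5.3 to GRCm38 and counted with HTSeq 0.9.1 from ribosome-reduced, paired-end libraries of 75 bases. The annotation release and the strand setting were not given in the sources used. Whether reads of overlapping genes on opposite strands were told apart is therefore not known. The 5 summary rows of the counter, 52.1% of the reads listed for R2a and 49.7% for R2b, stayed out of library sizes.

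Symbols, positions and exon lengths came from GENCODE M21 (GRCm38), which matched 48435 of 48795 identifiers without their version. Counts were scaled with TMM (edgeR 4.0.16, R 4.3.3). Ratio intervals are Clopper-Pearson intervals on the split of reads (scipy 1.17.1). No molecular identifiers are named for these libraries, so PCR copies count as separate reads, and intervals and the floor of 3 counts per library cover counting error only. Comparisons of ratios between gene sets used the exact conditional interval of the odds ratio.

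Collagen genes over 1 CPM are named with values, and of the other lists the called members, the 3 (cell type lists: 2) highest in CPM and some members chosen after their values were seen, such as Serpinh1, Mmp13, Pdgfra, Gli1, Pecam1, Plvap and the proteinase genes Adamts2, Bmp1 and their relatives. The cell type lists not described gene by gene were distal nephron, with 1 of 10 genes (Atp6v1g3) higher in R2a, and proximal tubule, with 0 of 10 called. Among all measured genes 1.93% were called higher and 1.84% lower. Atp6v1g3, with 2.80 CPM in R2a against 0.988 CPM in R2b, passed the minimum only through R2a, so that it could only be called higher. The members and lists were chosen with earlier results of these data known. Some podocyte genes are not reported here and were left out of that list after its values were seen. The rule for calls was run on simulated counts with known changes. These counts held counting error only, so the check cannot show how calls vary between animals or libraries. Alternatives were other scalings, DESeq2 1.42.0 size factors among them, other added values, CPM minimums and size rules, R2b thinned to the R2a total, and other memberships of the classes.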

Additional observations from a re-analysis of the deposited data

Results flagged for a closer look

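Reads that the counter did not assign to a gene were a signal outside the comparisons, well over the limit of 3 counts. In R2a 41.2% of the listed reads, and in R2b 38.9%, were assigned to no annotated feature. Reads on more than 1 gene were 2.42% for R2a and 2.51% for R2b, and reads aligned to more than 1 place 8.50% for R2a and 8.33% for R2b. How many of these lie in collagen genes was not measured. The check for libraries far from their group needs at least 4 per group and was not run.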

How the results depend on the processing

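No paired analysis was possible because each group has 1 library. Against 3 collagen genes lower in R2a, total-count scaling gave 1, an added value of 0.1 CPM 6 and of 2 CPM 0, the 4-fold rule 0 and the 1.5-fold rule 7 lower and 2 higher (Col4a5 and Col15a1); the other settings gave 2 or 3. Leaving out members with over 10% of exon bases in another gene's span, chosen after seeing the data, also gave 3. Against 301 higher and 287 lower of all genes, an added value of 0.1 CPM gave 493 and 462, 2 CPM 82 and 78, a minimum of 5 CPM 92 and 97, the 4-fold rule 41 and 16, and the 1.5-fold rule 869 and 903. Total-count scaling gave 377 and 240. It also set the ratio of summed type IV reads to 1.11 and of the other types to 1.07. Without the member with the most reads the fibrillar ratio was 0.588, the ratio of the other types 1.09 and the fibrillar ratio over the type IV ratio 0.580. With types VII, XV and XVIII in the basement membrane class its ratio was 1.10, and 0.972 for the other types without them. Without Col14a1, chosen after seeing the data, the ratio of all collagen reads was 1.05. The median log2 ratio of measured collagen genes ran from -0.24 to -0.01. The log2 ratios of Col1a2, Col3a1 and Col6a2 were below 0 under all 6 alternatives run for single genes. Few reads limit the fibrillar and type VI genes.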
